A study of Mus musculus with 6 samples.

Results

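The genes described here carry signals of the Wnt, Notch and TGF-beta pathways, and 102 of the 31626 genes in the tables matched by symbol: 44 of the Wnt pathway, 18 of the Notch pathway and 40 of the TGF-beta and BMP pathway. They were taken by name alone: Wnt, Fzd, Sfrp, Dkk, Axin, Lef1, Tcf7, Tcf7l2 and Ctnnb1 for Wnt, Notch1 to Notch4, Dll, Jag, Hes and Hey for Notch, and Smad, Tgfb, Tgfbr, Bmp, Bmpr, Acvr and Id1 to Id4 for TGF-beta. A name match brings in a few proteins that only carry the family name, such as Dkkl1, Bmp2k, Tgfbrap1 and Bmp1. The study measured RNA in mouse common myeloid progenitors (C57Bl/6) that a retrovirus carrying the leukaemia oncogene MN1 and GFP had transformed. One group was Dot1l -/-, made by transducing floxed cells with Cre recombinase, and the other was Dot1l flox/flox transduced with a control, with 3 libraries each. Both groups carried MN1, grew in methylcellulose with serum, IL3, IL6 and SCF and were sorted at day 7. DOT1L methylates histone H3 on lysine 79, and the comparison asks which transcripts differ once its gene is lost. No group had Cre with an intact Dot1l gene, so an effect of Cre and one of the deletion cannot be told apart. Whether replicates came from separate cultures or animals is not stated, so p-values measure the spread between these libraries, which may be technical.

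Wnt proteins bind Frizzled receptors, which keeps beta-catenin from being degraded by the Axin complex, and beta-catenin then acts in the nucleus with LEF and TCF factors. Sfrp and Dkk proteins are secreted and can block Wnt signals. Notch receptors are activated by Delta and Jagged ligands on neighbouring cells, are cut by proteases and then switch on Hes and Hey repressors with RBPJ. TGF-beta, activins and BMPs bind pairs of type I and type II receptor kinases, which phosphorylate SMAD proteins, and Id genes are classical BMP targets. In blood, TGF-beta restrains progenitor growth, Notch directs T cell fate and Wnt signals have been tied to stem cell and leukaemia stem cell renewal.

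Levels are given in FPKM, fragments scaled to gene length and to the library's total, so that they can be compared between genes. Dot1l itself was at 8.24, 8.17 and 5.80 FPKM in the Dot1l-deleted libraries, against 20.2, 22.6 and 19.6 FPKM in the control libraries (log2 fold change -1.39, SE 0.157, limma adjusted p = 0.000124). The steps between low values put depth at about 20700000 to 28000000 fragments per library. The third Dot1l-deleted library stood apart: its tested genes had a median deviation of -0.37 on the log2 scale from the mean of all 6, against 0.05 to 0.10 in the other libraries, and its 10 highest rows held 39.0% of its summed FPKM, against 6.59% to 10.8%. Over all 11924 tested genes the median log2 fold change was -0.16, and 0.00 after median-of-ratios scaling, which divides each library by its median ratio to the geometric mean of all 6. Fold changes below are for values as deposited unless called scaled. All 8 listed myeloid progenitor markers averaged at least 1 FPKM over the 6 libraries, but they did not move together. With Dot1l deleted, Kit was at 44.1 to 66.8 FPKM, Cd34 at 100 to 143 FPKM and Mpo at 1754 to 2609 FPKM. In controls they were at 111 to 125, 738 to 765 and 529 to 638 FPKM. Csf1r reached that mean only through the Dot1l-deleted libraries, at 1.83 to 3.44 FPKM against 0.298 to 0.676 FPKM in controls. The T and NK list had Cd3g, Cd2 and Ncr1 at 0 in every library, and the stromal list had Dcn and Lum at 0. Other members of these lists were present. Gzmb was at 14.7 to 24.4 FPKM with Dot1l deleted and 8.90 to 10.2 FPKM in controls, and Cd28 at 0.430 to 0.552 and 1.83 to 2.07 FPKM. Thy1 and Fbn1, the highest of the stromal list, are given below with Sfrp2. The summed level of 8 neutrophil markers was 21436 to 25739 FPKM with Dot1l deleted, against 1237 to 1455 FPKM in controls. That of 7 monocyte and macrophage markers was 879 to 1154 FPKM with Dot1l deleted and 124 to 151 FPKM in controls. Most of it was Ly6c2 and Lyz2. Of that list only Emr1 overlapped, at 23.4 to 31.7 FPKM with Dot1l deleted and 23.2 to 25.9 FPKM in controls. The sum of 6 megakaryocyte markers was 66.5 to 87.8 FPKM with Dot1l deleted and 116 to 123 FPKM in controls. The megakaryocyte markers did not move together: Itga2b was at 16.1 to 20.5 FPKM with Dot1l deleted and 82.2 to 83.4 FPKM in controls, Pf4 at 44.3 to 60.3 and 26.7 to 33.8 FPKM, and Ppbp at 2.27 to 3.08 and 0.147 to 0.233 FPKM. The sum of 6 mast cell and basophil markers was 1363 to 2001 FPKM with Dot1l deleted and 2078 to 2319 FPKM in controls. It was mostly Cpa3, which overlapped. Ms4a2 was lower, at 37.6 to 46.2 and 147 to 166 FPKM, and Mcpt8 higher, at 57.8 to 84.3 and 44.8 to 56.7 FPKM. The sum of 7 erythroid markers overlapped. The part of these shifts in the results below was not tested, and in such bulk samples fewer cells of a type and less RNA per cell cannot be told apart.

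Of the 102 genes, 35 averaged at least 1 FPKM over the 6 libraries and were tested. A gene was called at an adjusted p under 0.05 by limma on log2(FPKM + 1), adjusted over all tested genes. As deposited, 7 of the 35 rose and 6 fell after deletion, against 7.43% of all tested genes called higher and 12.2% called lower (19.7% in all). Their median log2 fold change was -0.17, close to that of all tested genes. With scaling 11 rose and 8 fell, against 23.0% and 22.3% of all tested genes (45.3% in all), and all 13 genes called as deposited stayed called in the same direction. Without the third Dot1l-deleted library 9 rose and 7 fell of 34, against 17.1% and 21.1% (38.2% in all), and Acvrl1 was then below the filter. Bmp8a, Acvrl1, Fzd3 and Tcf7l2 passed the filter only through the Dot1l-deleted libraries, and Jag1, Fzd5 and Sfrp2 only through the controls, so the counts say less than the values of each gene.

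**Figure D1:**
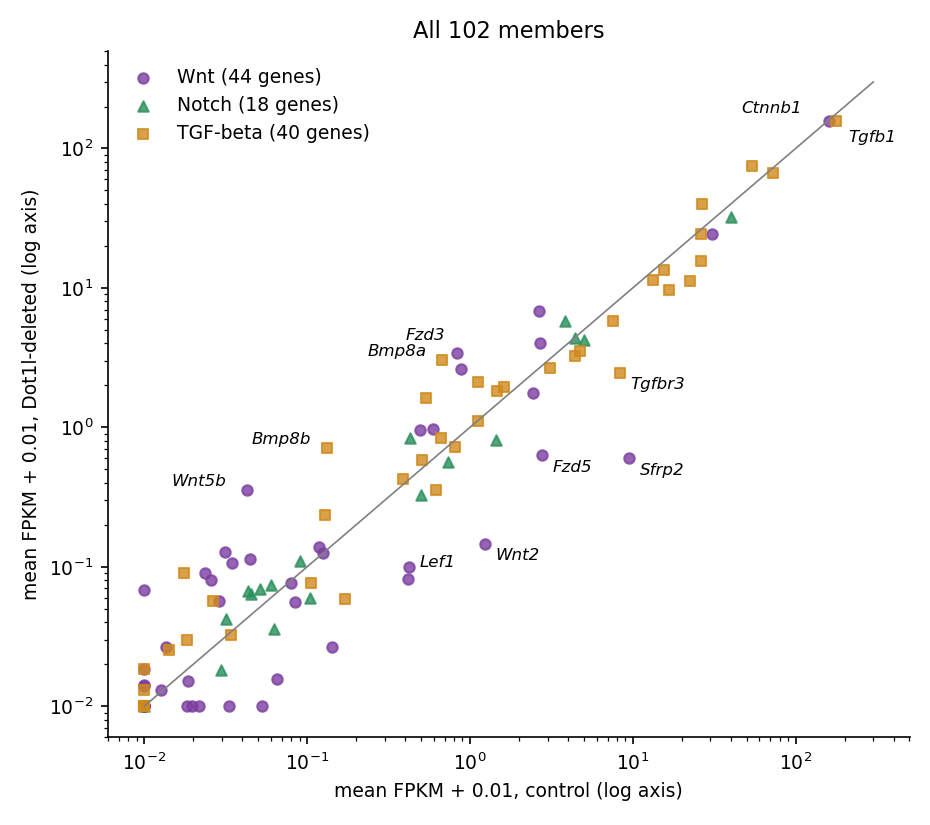
Mean FPKM of each of the 102 genes in the Dot1l-deleted libraries (vertical) against that in the control libraries (horizontal), both on log axes with 0.01 added, by pathway. The highest genes, Tgfb1 and Ctnnb1, lie on the line of equal values, and the farthest are Sfrp2 below the line and Wnt5b, an untested gene of low level, above it.

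The most abundant of the 102 genes were those encoding TGF-beta 1 and beta-catenin. Tgfb1 was at 187, 156 and 131 FPKM with Dot1l deleted, against 187, 174 and 168 FPKM in controls, and the groups overlapped (adjusted p = 0.540). Ctnnb1 was at 179, 172 and 121 FPKM with Dot1l deleted, against 162, 163 and 155 FPKM in controls. Its lowest value was that of the third Dot1l-deleted library, and the difference was not called as deposited (log2 fold change -0.04, SE 0.189, adjusted p = 0.889) and was 0.14 with scaling (SE 0.0376, adjusted p = 0.0263). Smad1, Id1, Hes6, Id2, Axin1, Smad2, Tgfbr1 and Acvr1b followed in that order of mean level, all above 15 FPKM. Every Wnt ligand gene was far lower, below 2 FPKM in each library.

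The 250 bases before the start are shown for 4 of the genes whose levels moved: Sfrp2, which fell the most, Tcf7l2, which rose among the nuclear partners of beta-catenin, and the receptor genes Bmpr1a and Acvr1b, which moved in opposite directions. The sequences are from RefSeq on GRCm38.p6, the first window listed for each gene, 5′ to 3′ on the gene's strand. Capitals mark the motifs searched on both strands.
Sfrp2, chr3:83766071-83766320, plus strand: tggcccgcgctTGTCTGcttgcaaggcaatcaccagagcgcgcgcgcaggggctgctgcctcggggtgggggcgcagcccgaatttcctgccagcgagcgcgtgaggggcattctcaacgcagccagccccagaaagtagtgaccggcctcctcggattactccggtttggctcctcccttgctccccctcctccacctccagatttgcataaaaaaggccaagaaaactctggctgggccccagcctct
Tcf7l2, chr19:55741560-55741809, plus strand: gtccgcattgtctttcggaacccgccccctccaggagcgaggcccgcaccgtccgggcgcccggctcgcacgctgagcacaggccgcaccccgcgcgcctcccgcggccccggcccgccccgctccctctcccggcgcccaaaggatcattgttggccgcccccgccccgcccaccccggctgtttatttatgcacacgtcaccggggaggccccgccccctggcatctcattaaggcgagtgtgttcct
Bmpr1a, chr14:34502547-34502796, minus strand: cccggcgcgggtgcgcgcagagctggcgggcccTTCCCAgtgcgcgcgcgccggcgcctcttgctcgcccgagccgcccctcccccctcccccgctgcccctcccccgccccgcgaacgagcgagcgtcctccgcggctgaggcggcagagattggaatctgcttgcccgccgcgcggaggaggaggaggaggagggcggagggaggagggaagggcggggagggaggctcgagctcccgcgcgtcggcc
Acvr1b, chr15:101173822-101174071, plus strand: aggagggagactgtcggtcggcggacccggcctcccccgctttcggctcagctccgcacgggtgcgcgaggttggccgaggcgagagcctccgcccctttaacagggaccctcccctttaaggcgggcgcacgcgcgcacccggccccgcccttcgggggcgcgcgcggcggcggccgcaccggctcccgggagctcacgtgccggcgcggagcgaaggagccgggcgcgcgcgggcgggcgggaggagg
The motifs were TGGGAA for RBPJ, CTTTGA for TCF and LEF, and GTCTAGAC, the full site, and the shorter CAGACA for SMADs. In these windows they gave a SMAD short motif 239 bases before the start of Sfrp2 and an RBPJ match 217 bases before that of Bmpr1a. Of all 32851 windows of this length, 21.6% held the RBPJ motif, 13.8% the TCF and LEF motif, 17.1% the SMAD short motif and 0.167% the full SMAD site, so single matches of the short motifs are common.

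Among the Wnt genes, members of the secreted antagonist family, of the Frizzled receptors and of the nuclear factors changed. Of 9 tested genes, 3 rose, 2 fell and 4 did not pass, against 7.43% of all tested genes called higher and 12.2% lower. With scaling the counts were 5 higher and 3 lower, against 23.0% and 22.3% of all tested genes. Sfrp2 and Fzd5 were the genes that fell, and Fzd3, Tcf7l2 and Dkkl1 those that rose. All of these but Dkkl1 passed the filter only through the group where they were high, so the counts were partly set by the filter. With a filter at a mean of 5 FPKM, 3 Wnt genes were tested, of which 0 rose and 1 fell.

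Sfrp2, encoding a secreted Frizzled-like protein that binds Wnt ligands, was at 0.440, 0.267 and 1.07 FPKM with Dot1l deleted, against 7.98, 10.6 and 9.83 FPKM in controls. All 3 Dot1l-deleted values lay far below the controls, and the third Dot1l-deleted library, which stands apart, was the highest of them. The mean was 16.0-fold lower (log2 fold change -2.74, SE 0.206, limma adjusted p = 7.22e-06). Without that library it was 26.8-fold lower (log2 fold change -2.95, SE 0.139, limma adjusted p = 0.000156). Its values were whole multiples of a single fragment, 22, 11 and 52 fragments after deletion against 445, 505 and 431 in controls. Sfrp2 is also made by stromal cells, and the summed level of 10 stromal markers was 33.6 to 47.8 FPKM after deletion and 80.2 to 85.7 FPKM in controls, with 3 of them at a mean of at least 1 FPKM and Col1a1, Col3a1, Dcn and Lum under 0.1 FPKM. The lower sum was that of Thy1, at 10.7 to 15.04 FPKM with Dot1l deleted and 61.4 to 67.2 FPKM in controls, while Fbn1 was at 19.4 to 28.5 and 15.0003 to 15.4 FPKM and Cxcl12 at 1.02 to 1.84 and 0.334 to 0.563 FPKM in that order of groups. At low levels, Col1a2 (0.291 to 0.300 and 0.914 to 1.25 FPKM) and Pdgfra (0.0277 to 0.0799 and 0.108 to 0.241 FPKM) were lower after deletion without overlap. Col1a1 was higher (0.0957 to 0.182 and 0.0106 to 0.0499 FPKM), and Pdgfrb overlapped. The part of these markers in the result was not tested. Dkk2, of the Dickkopf family of Wnt co-receptor ligands, was below the filter and untested, at 0.0619, 0.113 and 0.0424 FPKM with Dot1l deleted against 0.333, 0.467 and 0.424 FPKM in controls, which is 6, 9 and 4 fragments with Dot1l deleted and 36, 43 and 36 in controls. Dkkl1, which is related to the Dickkopf genes and known from testis and sperm, went the other way, with 7.25, 8.09 and 5.08 FPKM with Dot1l deleted against 3.23, 2.66 and 2.02 FPKM in controls (log2 fold change 1.10, SE 0.192, adjusted p = 0.00241).

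The Frizzled receptor genes changed in makeup. Fzd5 was at 0.855, 0.474 and 0.530 FPKM with Dot1l deleted, against 2.68, 3.005 and 2.63 FPKM in controls, a 4.47-fold lower mean without overlap (log2 fold change -1.22, SE 0.183, adjusted p = 0.000842). Fzd3 was at 3.60, 3.91 and 2.71 FPKM with Dot1l deleted, against 0.718, 0.697 and 1.07 FPKM in controls, a 4.11-fold higher mean (log2 fold change 1.26, SE 0.187, adjusted p = 0.000776). Fzd7, at 4.59, 4.18 and 3.22 FPKM in Dot1l-deleted libraries and 2.69, 2.87 and 2.51 FPKM in controls, did not pass as deposited (adjusted p = 0.0902) and passed with scaling (log2 fold change 0.57, SE 0.0675, adjusted p = 0.000996). For Fzd4 the values were 1.75, 1.93 and 1.54 FPKM after deletion and 2.50, 2.63 and 2.17 FPKM in controls (log2 fold change -0.33, SE 0.164, adjusted p = 0.199). Shares of the summed Frizzled FPKM depend on each other, as they add up to the whole, but do not depend on how libraries are scaled. By that measure Fzd3 held 30.7% ± 1.96 after deletion and 8.92% ± 2.69 in controls, and Fzd5 5.60% ± 1.49 and 29.5% ± 1.22 (SD, n = 3 each). Fzd7 held 36.1% ± 1.0004 after deletion and 28.7% ± 0.603 in controls, and Fzd4 15.9% ± 1.54 and 25.9% ± 1.38 (SD, n = 3 each). None of these 4 shares overlapped between the groups, and the exact two-sided permutation test gave p = 0.1 for each, the smallest that 3 against 3 libraries allow. The family sum itself was 12.4, 11.9 and 8.99 FPKM with Dot1l deleted, against 9.45, 9.77 and 8.91 FPKM in controls.

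**Figure D2:**
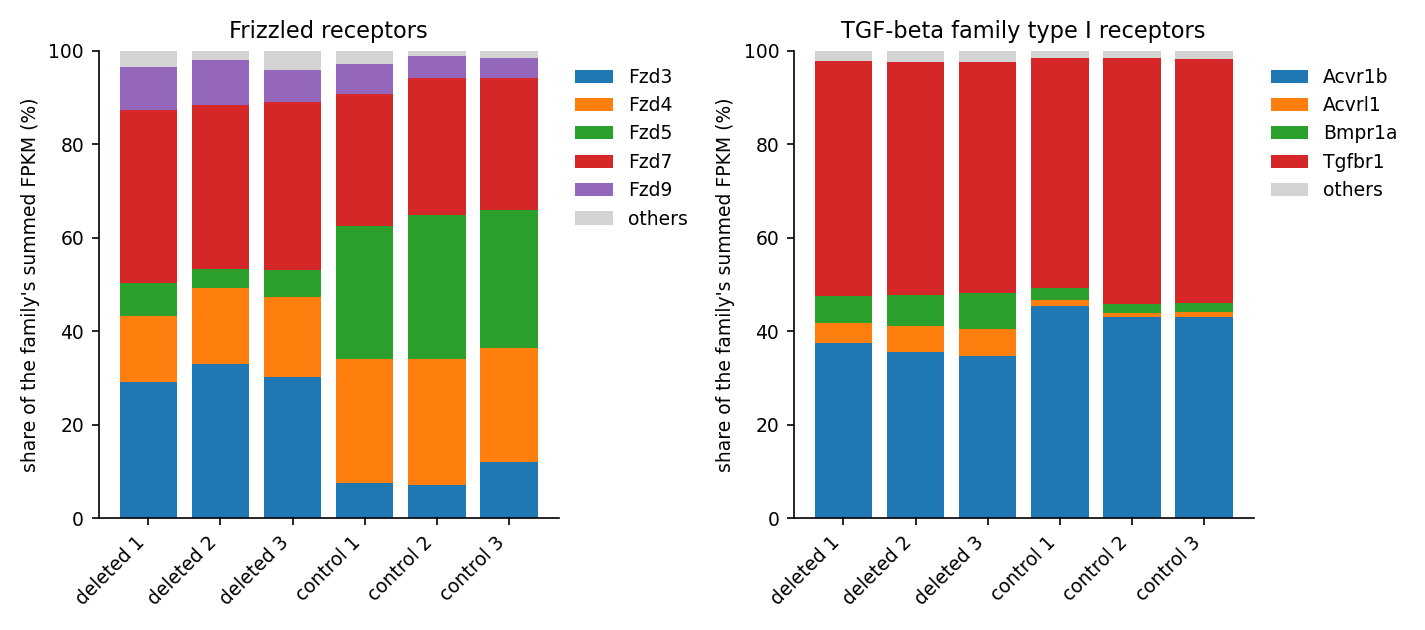
Stacked bars of each gene's share, in percent, of the summed FPKM of the Frizzled receptors (left) and of the type I receptors of the TGF-beta family (right), 1 bar per library, the 3 Dot1l-deleted libraries left of the 3 controls. Fzd5 holds a smaller and Fzd3 a larger part in all Dot1l-deleted libraries than in the controls, and Bmpr1a and Acvrl1 hold a larger part of the type I receptors.

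Among the nuclear factors, Tcf7l2, which encodes the DNA-binding partner TCF4 of beta-catenin, was at 2.98, 2.48 and 2.43 FPKM with Dot1l deleted, against 0.970, 0.859 and 0.790 FPKM in controls, and its 3.01-fold higher mean passed (log2 fold change 0.95, SE 0.172, adjusted p = 0.00289). Both relatives of this factor were below the filter and untested. Lef1 was at 0.0697, 0.123 and 0.0782 FPKM after deletion and at 0.409, 0.439 and 0.393 FPKM in controls. Tcf7 was at 1.11, 0.943 and 0.852 FPKM after deletion and at 0.695, 0.520 and 0.524 FPKM in controls. The groups overlapped in neither, with Lef1 lower and Tcf7 higher after deletion. Axin1, the scaffold of the beta-catenin destruction complex, was at 27.7, 25.8 and 19.2 FPKM after deletion and at 30.3, 32.1 and 29.1 FPKM in controls (log2 fold change -0.34, SE 0.166, adjusted p = 0.192, and -0.16 with scaling, adjusted p = 0.0349). Axin2, a common target of beta-catenin, was untested at 0.122, 0.114 and 0.0732 FPKM after deletion and 0.0412, 0.00984 and 0.0524 FPKM in controls, low throughout and higher after deletion without overlap.

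All 19 Wnt ligand genes were below the filter, and Wnt1, Wnt3a, Wnt7a, Wnt8a and Wnt8b were listed at 0 in every library. Wnt2, the highest of them in controls, was at 0.158, 0.191 and 0.0607 FPKM in Dot1l-deleted libraries and at 0.742, 1.29 and 1.64 FPKM in controls, in fragments 8, 8 and 3 after deletion against 42, 62 and 73 in controls. Wnt5b went the other way, with 0.545, 0.251 and 0.232 FPKM with Dot1l deleted against 0.0337, 0 and 0.0643 FPKM in controls, or 52 fragments in all with Dot1l deleted and 5 in controls. Of the 58 untested genes with any signal in the 3 pathways together, 13 lay above all controls in all Dot1l-deleted libraries and 9 lay below. Over all genes below the filter those shares were 14.4% and 8.03%. Many such values rest on few fragments: Dll1, counted among the lower, had 2 fragments in all after deletion and 5 in controls.

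**Figure D3:**
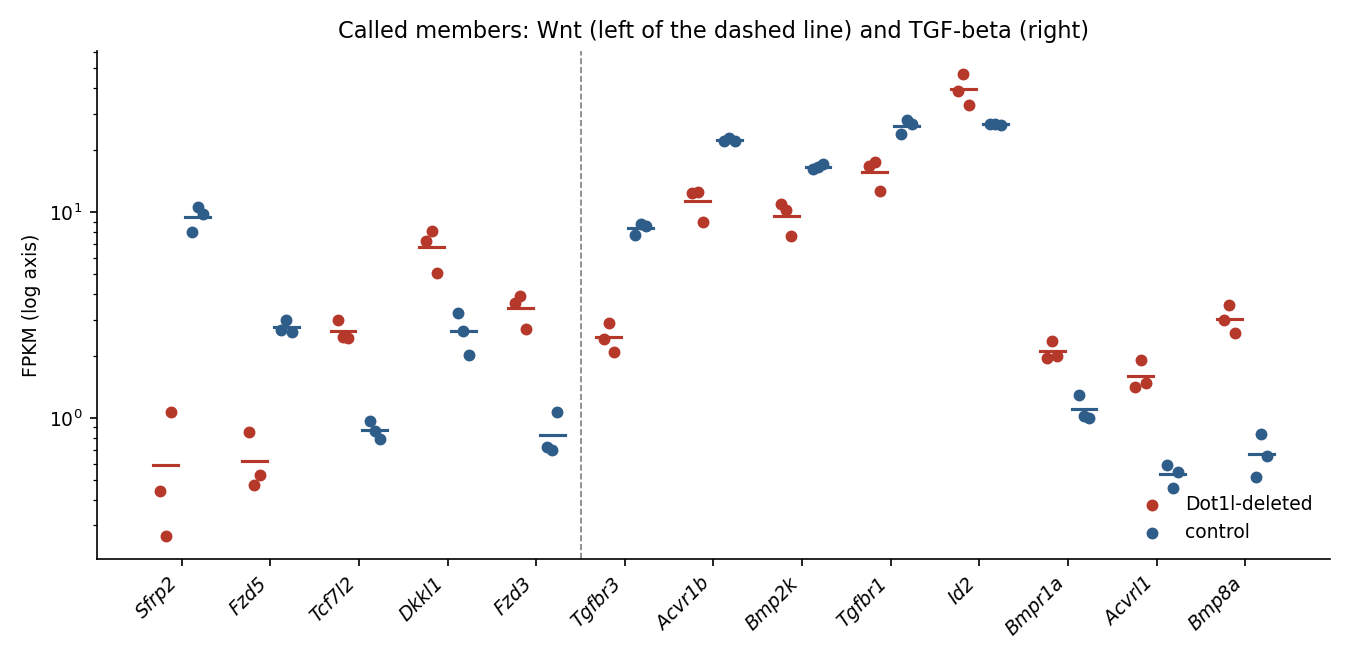
FPKM (log axis) in each of the 6 libraries for the 13 genes that passed the test as deposited, with the Dot1l-deleted libraries (red) left of the controls (blue) for each gene and a bar at each group's mean. In each of these genes the 2 groups do not overlap, with the widest gap for Sfrp2.

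Of the Notch genes, 5 were tested and none passed by limma as deposited, where 19.7% of all tested genes were called. Notch1 and Jag1 had the lowest unadjusted limma p of the 5, at 0.0104 and 0.0495. The receptor gene Notch1 was at 6.75, 5.74 and 4.80 FPKM with Dot1l deleted, against 3.60, 4.23 and 3.62 FPKM in controls, and the groups did not overlap. It missed the threshold as deposited (log2 fold change 0.48, SE 0.154, adjusted p = 0.0519) and passed with scaling, at 0.63 (SE 0.0845, adjusted p = 0.00164), and without the third Dot1l-deleted library (adjusted p = 0.00942). Notch2 was at 5.30, 4.16 and 3.26 FPKM with Dot1l deleted, against 4.62, 5.78 and 4.59 FPKM in controls, with overlap (adjusted p = 0.436). Of the summed Notch receptor FPKM, Notch1 held 55.7% ± 1.57 after deletion and 40.8% ± 0.781 in controls, and Notch2 40.6% ± 1.85 and 53.3% ± 1.15 (SD, n = 3 each). Notch1 exceeded Notch2 in all 3 Dot1l-deleted libraries and was below it in all 3 controls, and the exact permutation test of each share gave its smallest possible p of 0.1. Both genes together held nearly all of the sum, so their shares mirror each other and their tests are not separate results. Notch3 was below the filter at 0.282 to 0.367 FPKM after deletion and 0.450 to 0.529 FPKM in controls, in fragments 191 in all with Dot1l deleted and 314 in controls.

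The ligand gene Jag1 was at 0.795, 0.949 and 0.674 FPKM with Dot1l deleted, against 1.30, 1.70 and 1.29 FPKM in controls, a 1.77-fold lower mean that did not pass (log2 fold change -0.43, SE 0.191, adjusted p = 0.153). The other ligand genes, Jag2, Dll1, Dll3 and Dll4, stayed at or below 0.795 FPKM in every library. Hes6 was the most abundant of the repressor genes, at 35.3, 37.3 and 24.4 FPKM with Dot1l deleted against 41.8, 38.6 and 39.5 FPKM in controls (log2 fold change -0.32, SE 0.181, adjusted p = 0.252). Hes1, the classical Notch target, was at 4.66, 4.62 and 3.74 FPKM after deletion and 4.75, 4.46 and 4.08 FPKM in controls. The 95% interval of its scaled log2 fold change ran from -0.04 to 0.29. Hes7 was higher after deletion without overlap, at 1.13, 0.687 and 0.678 FPKM in Dot1l-deleted libraries and 0.381, 0.397 and 0.484 FPKM in controls, but was below the filter and untested. The remaining Hes and Hey genes reached at most 0.211 FPKM, and Hes3 was listed at 0.

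Of the 21 tested TGF-beta and BMP genes, 4 rose, 4 fell and 13 did not pass, beside 7.43% higher and 12.2% lower over all tested genes. With scaling 5 were higher and 5 lower, a share close to the 45.3% called over all tested genes. Bmp8a and Acvrl1 passed the filter only through the Dot1l-deleted libraries, so the counts of higher genes were partly set by the filter. The receptor genes Tgfbr3, Acvr1b and Tgfbr1, which serve TGF-beta and activin, fell, as did the kinase gene Bmp2k. The BMP receptor genes Bmpr1a and Acvrl1 rose, along with the BMP gene Bmp8a and the BMP target Id2. The calls of Bmpr1a, Acvrl1 and Id2 depended on settings, as given below. Not all BMP genes were called: Bmpr2, Smad1, Smad5, Id1 and Id3 did not pass as deposited, though Id1 did with scaling. Acvr1, another type I receptor gene, was below the filter. It was at 0.600 to 0.826 FPKM with Dot1l deleted and 0.701 to 0.871 FPKM in controls, with overlap.

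Tgfbr3 encodes betaglycan, a co-receptor that presents TGF-beta to its signalling receptors. It was at 2.42, 2.88 and 2.09 FPKM with Dot1l deleted, against 7.75, 8.77 and 8.52 FPKM in controls, a 3.39-fold lower mean (log2 fold change -1.44, SE 0.145, adjusted p = 5.61e-05). Acvr1b, the type I receptor for activin, was at 12.4, 12.5 and 8.91 FPKM with Dot1l deleted, against 22.1, 22.9 and 22.1 FPKM in controls (log2 fold change -0.94, SE 0.156, adjusted p = 0.00165). The type I receptor gene for TGF-beta itself, Tgfbr1, was at 16.7, 17.6 and 12.7 FPKM with Dot1l deleted, against 24.0, 28.0 and 26.8 FPKM in controls (log2 fold change -0.72, SE 0.159, adjusted p = 0.00916). In all of these the groups lay clear of each other, and with scaling the log2 fold changes were -1.29, -0.77 and -0.55. Tgfbr2, the type II partner of Tgfbr1, was at 3.44, 3.49 and 2.72 FPKM after deletion and 4.76, 4.30 and 4.16 FPKM in controls, which did not pass as deposited (log2 fold change -0.36, SE 0.148, adjusted p = 0.121) and passed with scaling, at -0.22 (adjusted p = 0.0379). Bmp2k, a kinase gene first found as induced by BMP2, was at 10.9, 10.3 and 7.68 FPKM with Dot1l deleted, against 16.2, 16.5 and 17.2 FPKM in controls (log2 fold change -0.74, SE 0.152, adjusted p = 0.00589). Tgfbrap1, whose product binds TGF-beta receptors, was at 4.81 to 6.58 FPKM after deletion and 7.22 to 8.02 FPKM in controls (adjusted p = 0.134).

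The BMP type I receptor gene Bmpr1a was at 1.95, 2.36 and 2.01 FPKM with Dot1l deleted, against 1.30, 1.02 and 1.002 FPKM in controls (log2 fold change 0.56, SE 0.175, adjusted p = 0.0477). Acvrl1, encoding ALK1, a type I receptor known from blood vessels, was at 1.41, 1.92 and 1.47 FPKM with Dot1l deleted, against 0.589, 0.458 and 0.546 FPKM in controls (log2 fold change 0.76, SE 0.194, adjusted p = 0.0191). Both calls depended on settings. Bmpr1a lost it with a pseudocount of 0.1, with the replicate number as a block and without any of the libraries but the third Dot1l-deleted one, with adjusted p-values up to 0.188 over the alternatives, and Acvrl1 lost it without each control library, up to 0.0673, and was below the filter without any 1 Dot1l-deleted library. Both passed with scaling, at 0.67 (adjusted p = 0.00643) and 0.85 (adjusted p = 0.00314). Of 6 endothelial markers, Pecam1 alone averaged at least 1 FPKM, Cdh5 and Tek averaged under 0.1 FPKM, and the summed level was 36.4 to 49.2 FPKM after deletion and 60.9 to 68.7 FPKM in controls. That sum was nearly all Pecam1, at 35.4 to 47.7 FPKM with Dot1l deleted and 60.4 to 68.0 FPKM in controls. The endothelial markers did not move together. Kdr, the next highest, was at 0.613 to 1.03 FPKM with Dot1l deleted and 0.165 to 0.245 FPKM in controls, higher without overlap. Vwf was lower without overlap, at 0.238 to 0.271 FPKM with Dot1l deleted and 0.290 to 0.455 FPKM in controls, and Emcn overlapped. The part of these markers in the result was not tested. Within the type I receptors, Acvr1b held 35.9% ± 1.40 of the summed FPKM after deletion and 43.8% ± 1.36 in controls, and Bmpr1a 6.79% ± 0.976 and 2.18% ± 0.420 (SD, n = 3 each). The share of Acvrl1 was 5.14% ± 0.783 after deletion and 1.04% ± 0.175 in controls, and that of Tgfbr1 49.8% ± 0.464 and 51.4% ± 1.84 (SD, n = 3 each). The exact permutation p was 0.1 for the first 3 of these and 0.4 for Tgfbr1. The type II receptor genes Bmpr2 and Acvr2a were at 2.92 to 4.31 and 1.02 to 1.20 FPKM with Dot1l deleted, against 4.19 to 5.22 and 1.01 to 1.20 FPKM in controls, and neither passed (adjusted p = 0.171 and 0.983). Acvr2b, below the filter, was at 0.506 to 1.09 FPKM after deletion and 0.486 to 0.748 FPKM in controls.

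Among the ligands, Bmp8a was at 2.99, 3.53 and 2.58 FPKM with Dot1l deleted, against 0.515, 0.832 and 0.654 FPKM in controls, a 4.55-fold higher mean resting on 425 fragments in all with Dot1l deleted and 98 in controls (log2 fold change 1.27, SE 0.184, adjusted p = 0.000659). Its near-identical relative Bmp8b was below the filter and untested, at 0.709, 0.877 and 0.526 FPKM with Dot1l deleted against 0.165, 0.110 and 0.0898 FPKM in controls. Reads shared by these 2 genes could be split either way by the authors' counting, so the rise of each alone is uncertain. Bmp2 was lower at 0.0707, 0.0143 and 0.0605 FPKM with Dot1l deleted against 0.169, 0.112 and 0.202 FPKM in controls, in fragments 12 in all with Dot1l deleted and 40 in controls. Bmp3, Bmp5 and Bmp15 were listed at 0 throughout, and the remaining BMP genes and Tgfb2 and Tgfb3 stayed below 1 FPKM in every library.

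None of the 6 tested SMAD genes passed by limma as deposited, where 19.7% of all tested genes were called, or with scaling, where 45.3% were. As deposited the unadjusted p was 0.170 or more in each. Smad1, the most abundant and a mediator of BMP signals, was at 74.3, 72.6 and 53.2 FPKM with Dot1l deleted against 67.6, 74.9 and 74.1 FPKM in controls. Its scaled log2 fold change had a 95% interval of -0.08 to 0.19, and that of Smad4, the partner of all receptor-regulated SMADs, -0.21 to 0.11. Smad3 was at 1.52 to 2.14 FPKM after deletion and 1.10 to 2.07 FPKM in controls (adjusted p = 0.517). Smad2 was at 20.6 to 26.6 FPKM after deletion and 24.9 to 26.9 FPKM in controls, Smad4 at 10.998 to 15.4 and 14.7 to 16.2 FPKM, and Smad5 at 9.09 to 12.8 and 11.9 to 14.6 FPKM. The inhibitory gene Smad7 came closest with scaling, at a log2 fold change of 0.29 (adjusted p = 0.0522), from 1.99, 2.11 and 1.73 FPKM after deletion and 1.61, 1.48 and 1.76 FPKM in controls.

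Id proteins bind other helix-loop-helix factors and keep them from DNA. Id2 was at 38.9, 47.0 and 33.3 FPKM with Dot1l deleted, against 26.8, 26.9 and 26.6 FPKM in controls (log2 fold change 0.54, SE 0.161, adjusted p = 0.0403, and 0.72 with scaling, adjusted p = 0.000616). The call was lost with no filter, without each control library and without the first or second Dot1l-deleted library, with adjusted p-values up to 0.158. Id1 was at 83.7, 82.7 and 56.9 FPKM with Dot1l deleted, against 58.1, 53.8 and 50.8 FPKM in controls, and overlapped through the third Dot1l-deleted library (log2 fold change 0.43, SE 0.186, adjusted p = 0.139). With scaling it passed at 0.61 (SE 0.0496, adjusted p = 0.000204), and without that library its adjusted p was 0.00188. Id3 was at 3.27, 3.33 and 1.33 FPKM after deletion and 3.19, 3.79 and 2.25 FPKM in controls, without a clear difference (adjusted p = 0.619), and Id4 was at or near 0. The shares of Id1 and Id2 within the family were 63.6% ± 2.49 and 34.2% ± 2.89 after deletion and 64.4% ± 1.26 and 31.9% ± 1.45 in controls (SD, n = 3 each).

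**Figure D4:**
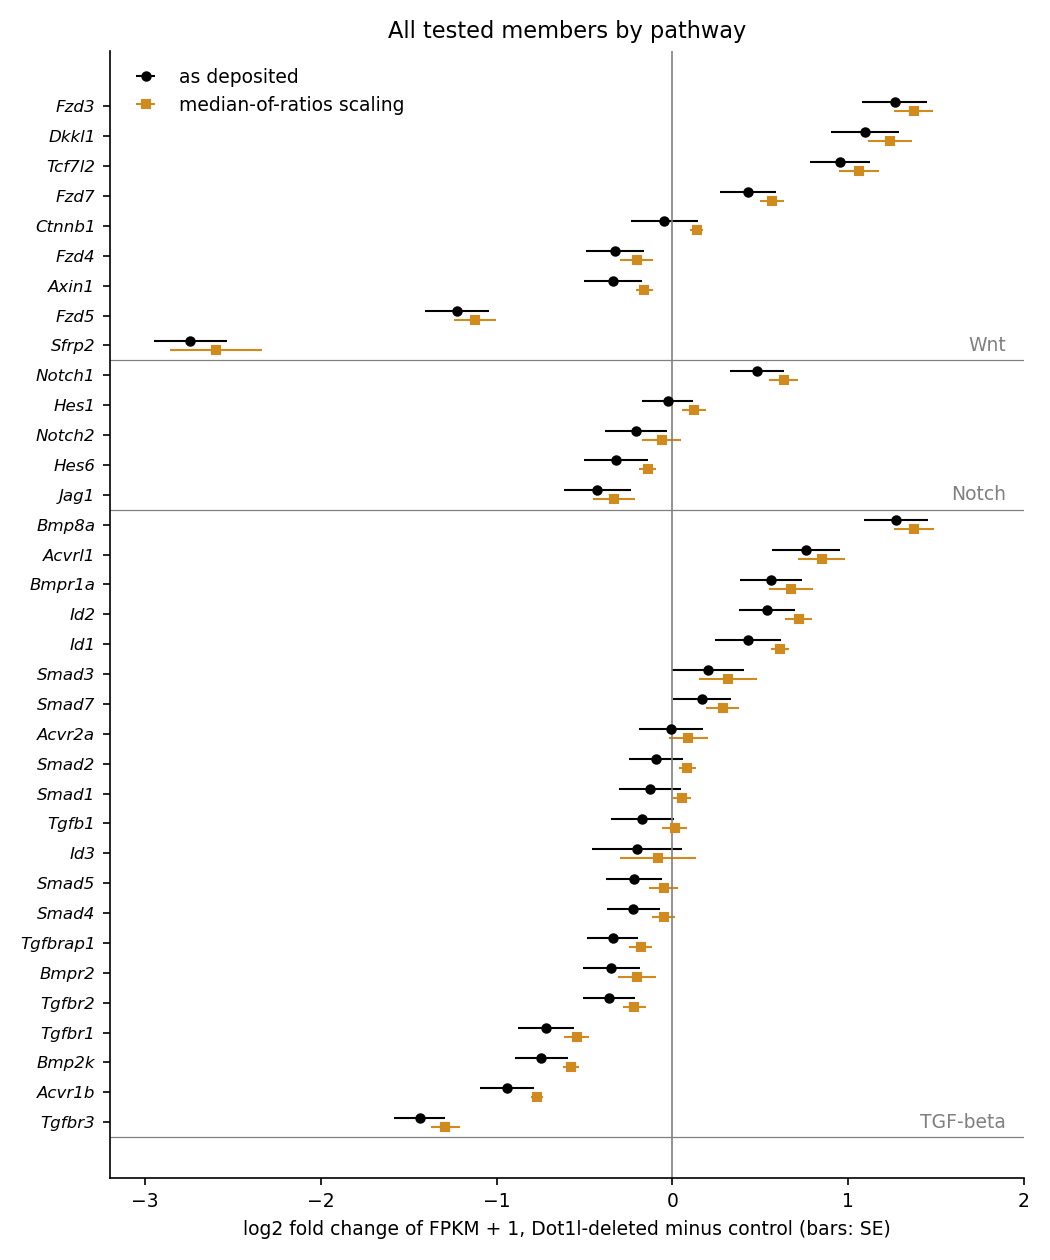
Log2 fold change of FPKM + 1, Dot1l-deleted minus control, with its SE, for the 35 tested genes by pathway, as deposited (black circles) and with median-of-ratios scaling (orange squares). Scaling moves all 35 genes to the right, by less for Acvrl1 (0.76 as deposited, 0.85 with scaling) than for Smad1 (-0.13 as deposited, 0.05 with scaling), and narrows the bars of all genes but Sfrp2.

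Other genes of the pathways were taken from 3 lists. Of 28 tested Wnt genes, 1 rose and 4 fell, near the 19.7% called over all tested genes. Scaling gave 4 higher and 7 lower, against 45.3% called over all. The co-repressor gene Tle1 rose, with 24.7 ± 5.20 FPKM after deletion and 13.9 ± 0.878 FPKM in controls (SD, n = 3 each; log2 fold change 0.77, adjusted p = 0.00976). The genes that fell were Kremen1, a Dickkopf receptor, at -0.69, Tnks, a tankyrase that marks Axin for degradation, at -0.63, Wls, which carries Wnt proteins to the cell surface and is named Gpr177 in the tables, at -0.55, and Znrf3, a ligase that removes Frizzled receptors, at -0.54 on the log2 scale, with adjusted p-values of 0.0113 to 0.0449. Without the second control library only Tle1 of these 5 kept its call. Ctbp1, a co-repressor, did not pass as deposited (log2 fold change -0.43, adjusted p = 0.131) and passed with scaling (-0.25, adjusted p = 0.0116).

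Of 30 further Notch genes, 1 rose and 3 fell, where 19.7% of all tested genes were called. Scaling gave 10 higher and 5 lower, near the 45.3% called over all. Maml3, a co-activator of cut Notch with RBPJ, fell to 2.70 ± 0.450 FPKM with Dot1l deleted, against 6.87 ± 0.604 FPKM in controls (SD, n = 3 each; log2 fold change -1.09, adjusted p = 0.00049). Adam17 and Adam10, the membrane proteases that make the first cut in activated Notch, fell as well, Adam17 to 34.6 ± 6.32 FPKM with Dot1l deleted against 62.1 ± 1.30 FPKM in controls (adjusted p = 0.00589) and Adam10 to 45.5 ± 6.88 FPKM with Dot1l deleted against 74.6 ± 3.28 FPKM in controls (adjusted p = 0.0122; SD, n = 3 each). Adam10 lost the call without either the second or the third control library. Numb, an inhibitor of Notch, rose with a log2 fold change of 0.47 (adjusted p = 0.0348), which held with scaling at 0.64 and without the third Dot1l-deleted library but not without any other single library, with no filter or with no variance trend. Psen2, a gamma-secretase subunit, and Spen, a co-repressor, did not pass as deposited (adjusted p = 0.0591 and 0.0806) and passed with scaling, at log2 fold changes of 0.69 and -0.27 (adjusted p = 0.000342 and 0.0402).

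Of 24 further TGF-beta and BMP genes, 2 rose and 5 fell, where 19.7% of all tested genes were called. Scaling gave 5 higher and 8 lower, where 45.3% of all were. Inhba passed the filter only through the Dot1l-deleted libraries and Bambi only through the controls, so each was kept where it was high. Inhba, which encodes the activin A subunit, rose to 1.85 ± 0.162 FPKM with Dot1l deleted, against 0.357 ± 0.0598 FPKM in controls (SD, n = 3 each; log2 fold change 1.07, adjusted p = 0.00251). The other that rose was Thbs1, an activator of latent TGF-beta and also a platelet gene, at a log2 fold change of 1.46 (adjusted p = 0.00035). Twsg1, a secreted modulator of BMPs, fell to 9.34 ± 1.81 FPKM with Dot1l deleted, against 18.4 ± 0.539 FPKM in controls (SD, n = 3 each; adjusted p = 0.00201). Ltbp3, which holds latent TGF-beta, fell by 0.85, the co-repressor gene Tgif2 by 0.61 and Bambi, a decoy receptor, by 0.85 on the log2 scale, with adjusted p-values of 0.00384 to 0.0103. Tgif2 lost the call without the first control library. Gdf11 was the remaining gene that fell, at -0.48 (adjusted p = 0.0442), and lost the call with the replicate block, with the block and scaling, and without any one library other than the third Dot1l-deleted one.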

How the data were processed

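RNA from 6 libraries of MN1-transformed mouse myeloid progenitors was analysed, grouped by the titles in the labels. The authors deposited 1 FPKM value for each gene. The submitters' processing notes name mm9 as the build and Cuffdiff, GSNAP, CASAVA 1.8.2 and SAMtools as tools, without roles, and per the labels a stranded mRNA kit. Whether counting used strand is not stated. A placeholder of 999999999 stood in 378 genes, none of them described here, and these were left out. The tables hold no positions.

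The 11924 genes with a mean of at least 1 FPKM were fitted by R 4.3.3 and limma 3.58.1, using lmFit and eBayes with a trend, on log2(FPKM + 1), two-sided, with Benjamini-Hochberg adjustment and no scaling beyond that of the authors. These fold changes understate changes of low genes. A fold given without log2 divides mean FPKM values. The script was tested on simulated data.

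FPKM gives no counts, but low values step by single fragments. Between 406 and 526 of 2652 to 2878 low genes sat at 1 ratio to the first control library, giving relative depths of 0.739 to 1. For 35 of 102 genes all values were whole multiples (within 0.05) of a unit whose implied depth was within 2-fold of the median, and the smallest such whole numbers are printed as fragments. The implied depth uses GENCODE M21 transcript lengths and is approximate. Of 133 other pathway genes, 132 were matched by symbol or identifier.

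Tested members could be named, with every value for called ones, and untested ones where a library reached 1 FPKM, with up to 6 genes of each other list by adjusted p. Other genes named (Lef1, Dkk2, Wnt5b, Wnt10a, Axin2, Fzd6, Notch3, Jag2, Dll1, Dll3, Dll4, Bmp8b, Bmp2, Smad6, Acvr1, Id4, Gdf11 and those listed at 0) were picked after their values were seen. Members and lists were chosen with earlier results of these data known. Promoter windows were found for 73 of the 102 genes.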

Additional observations from a re-analysis of the deposited data

How the results depend on the processing

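Among the 13 genes called as deposited, 13 kept the call and direction with median-of-ratios scaling, quantile normalization, a pseudocount of 5, no variance trend, placeholders taken as missing and the block with scaling, 12 with a pseudocount of 0.1, no filter and the replicate block, and 10 of those tested without any one library other than the third Dot1l-deleted one. Dot1l kept its call under every alternative. Notch1 was the Notch gene called in the settings that gave 1 higher.

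With median-of-ratios scaling 5 Wnt genes were higher and 1 Notch gene, 2740 of all tested genes were higher and 2661 lower, and 11, 15 and 13 genes of the other Wnt, Notch and TGF-beta lists were called. The same scaling without the third Dot1l-deleted library gave 5, 1, 2316, 2243, 10, 14 and 11 in that order. Ctnnb1 turned to 0.14 with that scaling and 0.16 with it and without that library, both called, and the cause was not tested. Quantile normalization gave 4 lower Wnt genes, 1 higher and 1 lower Notch gene, 2412 higher and 3196 lower among all genes, and 12, 19 and 14 in the other lists. With no filter 6 of 39 Wnt genes were lower, 1342 genes were higher and 1373 lower of 20568 in all, and 9 and 13 of the other Wnt and TGF-beta lists were called. A filter at a mean of 5 FPKM tests fewer genes, and gave 635 higher and 1307 lower of 8924 in all. Of 3 Wnt genes then tested 0 were higher and 1 lower, of 12 TGF-beta genes 1 was higher, and 3 and 2 were called in those lists. A pseudocount of 0.1 gave 1 higher Notch gene of 5, with 927 higher of 11924 in all.

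Without single libraries, counts ran from 700 to 2041 higher and from 1012 to 2517 lower over all tested genes, from 0 to 1 for higher Notch genes, from 1 to 4 for higher TGF-beta genes, and from 1 to 10, 2 to 13 and 5 to 12 in the other Wnt, Notch and TGF-beta lists. The highest of these counts came without the third Dot1l-deleted library, the 1 for TGF-beta without any other library, and the lowest of the Wnt list without the second control library.

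Deviations of libraries with the same replicate number correlated at -0.0301, -0.0377 and 0.0128, and 0 of 6 libraries correlated best with its own number. No shared deviation by number was seen. These values cannot settle whether same-numbered libraries shared a culture or animal, which is not stated. With the replicate block 1 of 5 Notch genes was called higher, with 1152 higher of 11924 in all. The block together with median-of-ratios scaling gave 1 higher Notch gene, 2302 higher genes in all, and 9 and 15 in the other Wnt and Notch lists. Depth limits the untested genes.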

Other observations

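Across the 91 promoter windows found for these genes, 17 held the RBPJ motif (18.7%, against 21.6% of all windows), 5 the TCF and LEF motif (5.49%, against 13.8%), 12 the SMAD short motif (13.2%, against 17.1%) and 0 the full SMAD site (against 0.167%).

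Further untested genes of low level did not overlap between the groups. Fzd6 was at 0.158, 0.0905 and 0.105 FPKM with Dot1l deleted, against 0.0334, 0.0098 and 0.0212 FPKM in controls. Fzd9 was at 1.12, 1.13 and 0.618 FPKM after deletion and 0.601, 0.452 and 0.392 FPKM in controls, with the lowest Dot1l-deleted value close to the highest control. Smad6, an inhibitory SMAD gene, was at 0.253, 0.243 and 0.178 FPKM after deletion and 0.155, 0.140 and 0.0608 FPKM in controls. Wnt10a had 2 fragments in all after deletion and 19 in controls, not scaled to depth.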
